A study of Mus musculus with 46 samples.

Results

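P018 is 1 of 23 promoter fragments taken from the Klf2 locus on mouse chromosome 8 and tested in reporter plasmids together with candidate cis-regulatory elements (cCREs) of the same locus. Every construct that carried P018 was taken: 624 of the 19789 Upstream constructs of the locus, with P018 in the first or the second position, and 233 of the 2364 Downstream constructs, with P018 as the promoter of the reporter. These 857 constructs are described among the 91657 of the whole series. The cCREs named below were chosen by their measured values, as those whose effect on P018 differed most from their effect on the other promoters, so the values that chose them are given as a description without a test.

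The series measured pairs of short fragments by massively parallel reporter assay in E14TG2a cells, which are embryonic stem cells of the mouse cultured with kinase inhibitors and leukaemia inhibitory factor. The Klf2 Upstream libraries were nucleofected in a mix with the Nanog and negative control Upstream libraries, and the Downstream libraries as a mix of their own, and cells were collected 24 h later. Each mix has 3 biological replicates, so 6 cDNA samples stand behind the values given here, all of the same untreated cell line. Upstream, 1 or 2 fragments stood before the reporter. Downstream, an insert stood behind a reporter that a promoter vector drove, and P018 was used there in its + orientation only. The labels name the Downstream mix and the Upstream mix separately, so assay and mix cannot be told apart.

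Activity divides the reporter barcodes found in RNA by those found in plasmid DNA, on a linear scale. The boost index is log2 of this value over that of the median construct sharing the oriented promoter fragment, so a boost of 1 is a doubling over that median construct. The relative effect is the boost of a cCRE with P018 minus its mean boost with at least 3 other promoter fragments, in log2 units. A value of 0 means that P018 was raised or lowered as the other promoters were on average. Errors are SDs over the 3 replicates unless said otherwise. The number of barcodes behind a construct is unknown, so no depth limit can be given for a single value.

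Promoters are the sites where RNA polymerase II is loaded, and enhancers raise the output of a promoter from other positions. Whether an enhancer works with any promoter or only with some is called enhancer-promoter compatibility, and it is read here from DNA fragments taken out of their chromosomal setting. Klf2, the gene that names the locus, encodes a Krüppel-like transcription factor of the pluripotency network in mouse embryonic stem cells.

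P018 covers chr8:72443649-72444099 as the deposited table gives it, with mm10 as the build named in the submitters' processing notes. Annotated starts of a pair of genes lie inside it, in opposite directions and 102 bases apart. Calr3, which encodes a testis-specific calreticulin, starts at 72443778 on the minus strand, and 1700030K09Rik starts at 72443880 on the plus strand. P018 therefore has the layout of a bidirectional promoter. The 3 RefSeq promoter windows below (GRCm38.p6, 250 bases before to 50 after a gene start) are printed because they overlap the promoter itself and 2 cCREs on which the results below turn. The Calr3 window at chr8:72443729-72444028, minus strand, lies wholly inside P018. The Zfp617 window at chr8:71922575-71922874, plus strand, lies inside E007, the cCRE that raised P018 most from upstream. The Gm39196 window at chr8:72125875-72126174, minus strand, lies inside E030, a cCRE that Downstream lowered P018 less than the other promoters on average. Capitals mark matches to the motifs searched on both strands, given next.
P018: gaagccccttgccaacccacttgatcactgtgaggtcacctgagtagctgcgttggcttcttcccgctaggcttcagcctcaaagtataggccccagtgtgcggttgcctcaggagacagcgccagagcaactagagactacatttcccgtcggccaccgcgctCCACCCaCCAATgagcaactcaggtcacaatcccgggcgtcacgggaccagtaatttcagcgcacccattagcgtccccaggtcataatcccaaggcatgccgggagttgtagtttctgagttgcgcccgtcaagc
E007: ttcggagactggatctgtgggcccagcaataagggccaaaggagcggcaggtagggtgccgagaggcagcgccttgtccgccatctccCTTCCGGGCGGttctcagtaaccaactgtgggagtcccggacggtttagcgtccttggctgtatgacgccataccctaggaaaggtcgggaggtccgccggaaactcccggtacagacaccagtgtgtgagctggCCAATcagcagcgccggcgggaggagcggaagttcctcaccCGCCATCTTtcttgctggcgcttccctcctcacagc
E030: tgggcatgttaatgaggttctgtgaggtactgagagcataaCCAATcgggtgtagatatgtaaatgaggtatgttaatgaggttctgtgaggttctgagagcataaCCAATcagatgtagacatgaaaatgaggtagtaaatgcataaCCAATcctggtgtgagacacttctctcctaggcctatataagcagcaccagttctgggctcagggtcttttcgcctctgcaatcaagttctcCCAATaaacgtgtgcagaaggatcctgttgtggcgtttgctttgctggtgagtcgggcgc

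The search covered the TATA box (TATAAA), the box bound by the factor NF-Y (CCAAT), the GC box of Sp1 (GGGCGG) and a core element of Krüppel-like factors (CCACCC). It further covered the site of ETS family factors (CCGGAAG), the cyclic AMP response element of CREB (TGACGTCA) and the E-box of basic helix-loop-helix factors (CACGTG). The remaining motifs were those of the respiratory factor NRF1 (GCGCATGCG), the zinc finger factor YY1 (AAGATGGCG), the octamer of POU family factors (ATTTGCAT), the nuclear receptor ESRRB (TCAAGGTCA) and the SOX family (CATTGT). The P018 window held CCACCC at position 165 and CCAAT at position 172, counted from its 5′ end, and both lie between the 2 gene starts. The Krüppel-like element was present in 31.5% of all 32851 promoter windows, and the NF-Y box in 37.4%. The 1700030K09Rik window, which reaches past the end of P018, added 1 CACGTG inside the fragment, a motif present in 7.15% of windows. The E007 window held 1 match each to the ETS site (8.86% of windows), the GC box (35.7%), the NF-Y box and the YY1 motif (1.40%). The ETS and GC box matches overlap, and those of ETS and YY1 are read on the opposite strand. The E030 window held 4 matches to CCAAT. The GC content was 58% in the P018 window, 62.3% in that of E007 and 46% in that of E030, against a median of 52.7% over all windows. The number of CpG sites was 16, 21 and 6, against a median of 7. A match is a description of letters and not a measured binding site.

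Alone in the Upstream assay, P018 in + orientation had activities of 3.37, 2.99 and 2.86 in the 3 replicates, and in - orientation 2.55, 2.22 and 2.21. These were ranks 11 and 12 among 46 oriented promoter fragments. Both orientations were active, and the + orientation was higher in every replicate without overlap. The replicates of P018+ overlapped those of P013+ just above it, the promoter fragment at Fam32a, with a mean of 3.32. As the Downstream vector without insert, P018 had activities of 1.22, 1.29 and 1.40, rank 4 of 10. P017 at Eps15l1 lay above it at 1.59 without overlap, and P014 below it at 1.20 with overlapping replicates.

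Downstream of the P018 reporter, 149 constructs with 80 cCREs had a median activity of 1.06, from 0.525 for E030- to 4.34 for E029+. The 40 constructs with 20 control inserts had a median of 0.848. The lowest control was a shuffled version of E095 with 0.408, 0.376 and 0.474, a mean of 0.418, and the highest was a shuffled version of E006 at 2.70. The 44 constructs with promoter fragments as inserts had a median of 1.07, from 0.306 for P008- to 2.21 for P021+. The 3 kinds of insert thus overlapped widely. The boost index was spread more over controls (SD 0.63 between constructs, n = 40) than over cCREs (SD 0.49, n = 149). Of the cCRE constructs, 3 lay above the highest control and 0 below the lowest.

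Against the mean of the controls with the same promoter, 77 of the 149 pairs with P018 differed (limma, adjusted p under 0.05), of which 59 were higher and 18 lower. The share over all 1364 Downstream pairs was 52.3 percent, with 37.0 percent higher and 15.3 percent lower, so the P018 count is near the background. Because the controls were averaged in each replicate, the p-value does not measure the spread between control inserts (SD 0.63). A call is therefore a difference from their mean only. The median difference was 0.21 for P018 and 0.18 over all pairs. With the replicate as a block, 127 of 149 were called, against 83.9 percent of all pairs. Against P018 without an insert, 14 were higher and 76 lower, where 10.6 percent of all pairs were higher and 42.4 percent lower. Under this baseline 33 of the 149 differences were above 0, compared with 107 against the controls, and the median difference was -0.30 for P018 and -0.25 over all pairs, so the shift was shared by the promoters. Without replicate 2, 42 pairs were called.

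The most selective constructs of P018 Downstream carried E029 and E065. E029 (chr8:72115240-72115690, between genes and 2761 bases from Gm39196) was measured in + orientation, with activities of 3.93, 4.27 and 4.87. Its boost with P018 was 2.07 ± 0.08, a 4.19-fold activity over the median P018 construct. With 6 other promoters its boost ran from 0.12 with P017 to 1.28 with P013, with a median of 0.29. P018 stood above each of them, and P013 was the next. The relative effect of E029 was 1.65 ± 0.10. E029 was also the highest cCRE by relative effect for P013, with 0.73, so a high place of E029 was not particular to P018. It had no value here with P009, P014 or P022.

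E065 (chr8:72365745-72366195, within Eps15l1) separated by its own orientation. In + orientation it gave P018 activities of 3.91, 2.68 and 3.20, a boost of 1.64 ± 0.29. With the 4 other promoters measured in that orientation its boost was between -0.41 and 0.25. In - orientation it gave P018 1.05, 1.05 and 1.28, and its boost of 0.11 lay among those of 9 other promoters, from -0.07 to 0.63. The effect on P018 thus appeared in 1 orientation of the cCRE. Averaged over both, the relative effect was 0.87 ± 0.13, made of 1.79 and -0.05. E065 was also the highest cCRE by relative effect for P001, with 0.53, so a high place of E065 was not particular to P018. The value for P001 came from the - orientation only, and E065+ had no value with P001.

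E055 (chr8:72302385-72302835, 231 bases from Gm40505) showed a split of the same kind. In + orientation the activities with P018 were 2.57, 2.41 and 2.70 and the boost of 1.30 ± 0.07 was above all 9 other promoters, of which P013 was highest at 0.68. In - orientation the boost was 0.19, below the median of 0.32 over 7 others. Its averaged relative effect was 0.39. Over the 67 cCREs measured in both orientations, the gap between orientations in relative effect had a median of 0.11, and E065 with 1.84 and E055 with 1.31 had the widest gaps.

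E033 (chr8:72149062-72149512, within Tpm4, a tropomyosin gene) was measured in + orientation and gave P018 activities of 1.55, 1.46 and 1.63. Its boost of 0.58 ± 0.07 was above those of the 6 other promoters, the highest of which was 0.09, for a relative effect of 0.63 ± 0.11. E030 (chr8:72125819-72126269, over the start of Gm39196) differed from the others in kind, since its boost Downstream was below 0 with every promoter measured there. With P018 its activities were 0.824, 0.768 and 0.832 in + orientation and 0.530, 0.503 and 0.542 in - orientation. The averaged boost was -0.67 with P018 and -1.12 with the other promoters, so its relative effect of 0.45 ± 0.03 is a smaller decrease and not an increase. In + orientation all 9 other promoters fell lower than P018. In - orientation 7 of 8 did, but P022 fell less, at -0.53 against -0.98 for P018. E030 was also the highest cCRE by relative effect for P022, with 0.55, so a high place of E030 was not particular to P018. Just outside these 5 stood E009 with a relative effect of 0.38, against 0.39 for E055.

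At the other end the relative effects were small, from -0.23 for E007 over -0.24 for E080, -0.25 for E003 and -0.27 for E106 to -0.28 for E031. E042, at -0.22, was next. The relative effects of P018 thus reached much further above 0, to 1.65, than below it. E007 (chr8:71922525-71922975, over the start of the zinc finger gene Zfp617) raised P018, with boosts of 0.51 in + and 1.07 in - orientation, but the median boosts with 9 other promoters were 0.82 and 1.39. E031 (chr8:72136095-72136545, within Tpm4) gave P018 a boost of 0.22 and 0.20 in its 2 orientations, against medians of 0.46 and 0.46. E080, within the Mediator subunit gene Med26, and E003, near Zfp709, had averaged boosts of -0.16 and -0.19 with P018, and 0.08 and 0.06 as means over the others. Single promoters weigh on these means: E080+ had 1.01 with P014 and E003+ 1.32 with P009. Against the medians of the others the gaps were smaller in + orientation, with -0.29 against -0.21 for E080 and -0.10 against 0.04 for E003. In - orientation they were -0.02 against 0.18 and -0.29 against -0.06. E106, within the corepressor gene Sin3b, had -0.03 against 0.25, over 4 other promoters.

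By limma, the relative effect differed from 0 for 102 of 145 oriented cCREs with P018, against 67.1 percent of all 1341 promoter and cCRE combinations, and since this contrast chose the cCREs nothing is read from it. The SD of the relative effect over cCREs was 0.28 for P018, rank 2 of 10 promoters after P021 with 0.29. The interquartile range was 0.26, rank 5 of 10. P018 thus ranked higher by the SD, which weighs single extreme cCREs such as E029, than by the middle of its distribution.

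The Upstream assay gives a measure of these cCREs that the Downstream choice did not use. No E029 construct with P018 was analysed Upstream. Of the other 9, none had a relative effect called by limma, and none of the 1372 cCRE and promoter combinations was called at all, a share of 0.0 percent, with 13 of 72 at an unadjusted p under 0.05 for P018 and 315 of 1372 over all. With boosts divided by each promoter's SD 6 of the 72 were called, against 6.34 percent of all, and none of these 9 was among them. E065 had a relative effect of -0.06 ± 0.24 Upstream (limma, adjusted p = 0.81), and before P018 it was measured only in - orientation with P018-. The relative effect Upstream therefore does not include the orientation that raised P018 Downstream. Behind P018+, E065+ had activities of 0.493, 0.403 and 0.523 and E065- of 0.660, 0.626 and 0.692, so the + orientation had the lower activity there. Alone, E065 was weak, at 0.042 in + and 0.108 in - orientation, with the + replicates from 0.018 to 0.171. Over the cCRE alone, the log2 difference behind P018+ was 3.47 for E065+ and 2.60 for E065-. E030 had 0.28 ± 0.19 (limma, adjusted p = 0.26), from activities of 1.83, 1.55 and 1.62 with P018+ and 1.38, 1.25 and 1.15 with P018-. E033 had 0.15 ± 0.39 (limma, adjusted p = 0.64) and E055 0.10 ± 0.40 (limma, adjusted p = 0.76). Before P018, the + orientation of E055, at 0.23, was measured with P018- only. E080, E003 and E031, which had been lowest Downstream, had 0.11, 0.15 and 0.01 (limma, adjusted p = 0.57, 0.56 and 0.95). E007 had -0.61 ± 0.32 and E106 0.39 ± 0.40, and both were also among the cCREs chosen Upstream.

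Before P018 in the Upstream assay stood 72 cCREs in 215 constructs. The median activity was 2.47 for P018+ (n = 96, from 1.38 for E040+ to 8.48 for E007+) and 1.70 for P018- (n = 119, from 0.608 for E092- to 6.56 for E007+). Both medians are below P018 alone. Against P018 alone, 73 of 215 pairs changed (limma, adjusted p under 0.05), 9 higher and 64 lower, compared with 16.1 percent of all 3685 pairs, of which 4.1 percent were higher and 12.0 percent lower. The P018 share of 34.0% was close to that of P009 at 34.2% and P001 at 33.6%. The call rests on all 3 replicates, since with any 1 of them left out 0 of the 215 pairs were called, with 60 to 94 at an unadjusted p under 0.05. Over all 3685 pairs, 13.8 to 32.7 percent were at an unadjusted p under 0.05 in these fits. With the replicate as a block 106 were called, against 28.2 percent of all pairs, and against the median P018 construct in place of P018 alone 17 were higher and 10 lower, with 4.83 and 2.42 percent of all pairs.

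The 9 higher pairs came from 4 cCREs, E007 in all 4 combinations of orientation, E011 and E097 in 2 each and E021 in 1. E007+ with P018+ reached 8.94, 9.31 and 7.34, a log2 difference of 1.47 to P018 alone (SE 0.15; limma, adjusted p = 0.0077). E007+ with P018- reached 6.66, 7.23 and 5.87 (limma, adjusted p = 0.0068). E007 was also an active fragment by itself, with 9.07, 9.31 and 7.57 in + orientation, about as high as with P018+. E097+ with P018- reached 5.65, 4.66 and 4.28, and E011- with P018- 5.46, 5.52 and 5.34. Among the lower pairs, E092- with P018- was at 0.601, 0.572 and 0.652, a log2 difference of -1.93 (SE 0.13; limma, adjusted p = 0.0064). E092, within Nwd1, and E038, within Hsh2d, lowered P018- in both of their orientations. Of the 64 lower pairs, 43 had P018 in - orientation, which also had more constructs.

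Over all cCREs, the boost with P018+ followed that with P018- (r = 0.82, rho = 0.73, n = 96 oriented cCREs), as a description over cCREs that share the transfection. The boost also followed the activity of the cCRE alone, with r = 0.73 for P018+ (n = 96) and 0.69 for P018- (n = 119).

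The relative effect Upstream chose other cCREs than Downstream, apart from E007 and E106. The highest 5 were E071 with 0.72 ± 0.25, E107 with 0.53 ± 0.25, E048 with 0.47 ± 0.14, E106 with 0.39 ± 0.40 and E034 with 0.29 ± 0.19, with E021 next at 0.29. E071 (chr8:72422937-72423387, within Gm46043 and 20.3 kb from P018) before P018- gave 2.31, 1.96 and 2.03. Its boost of 0.32 with P018 was the highest among 15 oriented promoters, but P009+ was level with it at 0.31 ± 0.17 and P021- was at 0.21 ± 0.06. The median over the other 14 was -0.29. E071 was also the highest cCRE by relative effect for P009, with 0.71, and for P021, with 0.61, so a high place of E071 was not particular to P018. E107 and E106, within Sin3b, and E048 and E034 had boosts with P018 of 0.54, -0.03, 0.19 and -0.01, so the last 3 differed little from the median P018 construct. Single promoters weigh on the means here too: E106- had -1.45 with P001 and E048+ -1.78 with P023. The medians over the other oriented promoters were -0.13 for E106- and -0.10 for E048+. P018 was above 3 of 6 others for E106- and 25 of 29 for E048+. Replicate 3 of E106 was at -0.05 where the others were at 0.71 and 0.52.

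The lowest 5 were E109 with -1.07 ± 0.34, E097 with -0.75 ± 0.40, E007 with -0.61 ± 0.32, E042 with -0.54 ± 0.13 and E018 with -0.46 ± 0.07, and E092 was next at -0.43. For E018 the gap to the median of the others lay in its - orientation, with a boost of -0.27 against 0.47 over 19 oriented promoters. E018+ had -0.23 with P018 against a median of -0.17 over 27, of which 10 lay below P018. E109 (chr8:72746041-72746491, within Sin3b) before P018- gave 0.542, 0.627 and 0.825, below P018- alone in every replicate. Its boost of -1.36 was below those of all 8 other oriented promoters, from -0.44 to -0.09. E097 (chr8:72676845-72677295, within Nwd1) and E007 are cCREs that raised P018, with boosts of 1.21 and 1.70, but raised the other promoters more, by 1.96 and 2.31 on average. Both reached their highest boosts on promoters with little activity of their own: E007+ had 5.62 with P002 and 0.60 with P003. When each promoter's boosts were divided by their SD, the relative effect of E007 turned to 0.33 SD units, and over the promoters used in both assays it was -0.08, so its sign Upstream depends on the scale. Over all oriented cCREs 0 of 214 Upstream relative effects were called by limma, with 50 at an unadjusted p under 0.05, and 0.0 percent of all 3648 were called. With boosts divided by the promoter's SD 12 were called, against 5.87 percent of all, which is near the background.

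The Downstream assay measured 9 of the 10 cCREs that the Upstream assay had chosen, and 7 of these 9 had a relative effect called by limma, against 67.3 percent of all 740 combinations. E106 and E007 are among the 7 and had also been chosen Downstream. The count is near the background. Averaged over orientations, the 5 highest Upstream were all below 0 Downstream, E071 by less than its SD. E071 had -0.03 ± 0.06 (limma, adjusted p = 0.45) and E034 -0.13 ± 0.11 (limma, adjusted p = 0.055). E048 had -0.19 ± 0.05 (limma, adjusted p = 0.0039) and E107 -0.08 ± 0.04 (limma, adjusted p = 0.044). E107 was placed before P018 Upstream only in - orientation, and in that orientation its Downstream relative effect was 0.15, the same direction as Upstream, against -0.30 in + orientation. Of the lowest, E018 had 0.22 ± 0.02 (limma, adjusted p = 0.0011) and E097 0.26 ± 0.07 (limma, adjusted p = 0.0028), both above 0 Downstream. E042 had -0.22 ± 0.10 (limma, adjusted p = 0.0099), below 0 in both assays. E007, at -0.23 ± 0.05 Downstream, was also below 0 in both, though its Upstream sign depends on the scale. E109 was not analysed with P018 Downstream.

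Over the 71 cCREs measured with P018 in both assays, the boost index Downstream and Upstream had r = 0.51 and rho = 0.40, where the other 9 promoters had r from 0.52 to 0.75. The relative effect had r = -0.15 and rho = -0.22, with the same sign for 31 of 71 cCREs, where the other promoters ran from r = -0.08 to 0.37. These are descriptions over cCREs, which share libraries and the promoters used for the mean. Within an assay the agreement between promoters was closer: the boost with P018 followed the mean boost with the others with r = 0.80 Downstream (n = 78) and 0.84 Upstream (n = 72).

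By correlation of boosts over shared cCREs, the promoters most like P018 Downstream were P013 (r = 0.81, n = 77), P009 at Rab8a (r = 0.78, n = 69) and P022 at Smim7 (r = 0.77, n = 71), and the least like was P021 at Med26 (r = 0.66, n = 71). Upstream they were P026 (r = 0.91, over 7 cCREs only), P016 at Klf2 (r = 0.85, n = 47) and P003 (r = 0.83, n = 58), and the least like was P007 (r = 0.42, n = 64). The SD of the relative effect Upstream was 0.29 for P018, rank 22 of 23.

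Pairs with P018 were lower when P018 stood first, as pairs with other active promoters were. With P018 first and the cCRE next to the reporter, the median activity was 0.642 for P018+ (n = 146) and 0.343 for P018- (n = 109). The same oriented pair was higher with the cCRE first by a median log2 difference of 1.73 for P018+ and 2.18 for P018-, in all 3 replicates for 93 of 94 and 89 of 93 pairs. These differences were ranks 11 and 9 among 39 oriented promoters, below P021+ with 3.33, P014+ with 3.32, P016+ with 2.68 and P009+ with 2.65. E007+ gave the highest values in this order as well: after P018 it reached 7.17, 9.21 and 6.34 with P018+ and 13.5, 12.3 and 9.39 with P018-. These medians lie far below P018 alone, at means of 3.07 and 2.32. They lie above the cCRE alone, by a median log2 difference of 2.15 for P018+, higher in all 3 replicates for 143 of 145, and of 1.27 for P018-, for 101 of 108. Many cCREs were weak alone, such as E065+ at 0.042, and from such levels a small rise is a wide log2 difference. These counts were not made for other first promoters, so they are not read as a trait of P018. Which fragment the transcripts started from was not measured.

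Promoters behind P018 were also mostly above their own level. Of 80 such constructs 77 were above the second promoter alone in all 3 replicates, with a median log2 difference of 1.47, and the highest was P018- before P022+ with 32.8, 29.2 and 26.2, against 18.6 for P022+ alone. Many second promoters were weak alone, such as P005- at 0.074, and from such levels a small rise is a wide log2 difference. The count was not made for other first promoters, so it is not read as a trait of P018. With P018 second, 35 of 74 promoter pairs changed against P018 alone (limma, adjusted p under 0.05), 14 higher and 21 lower, against 41.2 percent of all 1317 pairs, with 29.9 percent higher and 11.2 percent lower. Against P018 alone, P022+ raised P018- most, to 14.1, 13.8 and 11.5, a 5.63-fold change (limma, adjusted p = 0.00071), and P018+ 5.25-fold. Both pairs, at means of 13.1 with P018- and 16.1 with P018+, stayed below P022+ alone at 18.6. P004- lowered P018- to 0.793, 0.560 and 0.776, a 0.302-fold level (limma, adjusted p = 0.0020). The activity with P018 second followed that of the first promoter alone with r = 0.79 over 74 pairs. Without replicate 1 none of the 74 was called (20 at an unadjusted p under 0.05), and without replicate 2 or 3 there were 13 and 28 calls. Over all promoter pairs, 28.2, 37.9 and 50.5 percent were at an unadjusted p under 0.05 without replicate 1, 2 or 3.

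On P018 Downstream, 5 cCREs were measured beside shuffled versions of their own sequence, each with 6 control constructs. E046+ with a boost of 1.21 was above all 6 of its shuffled constructs, which ran from -0.69 to 0.97, and E046- at 0.76 was above 5. E006 was above 5 of 6 in both orientations. E030- at -0.98 lay below all 6 of its shuffled constructs, from -0.68 to -0.24, while E030+ at -0.36 was above 4. E027 and E095 lay within the range of theirs. Shuffled inserts differed widely among themselves on P018, and those of E006 alone ran from -0.997 to 1.38.

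The relative effects showed no visible order by distance from P018. Over cCREs between 7.3 and 558.1 kb from P018, rho was -0.01 Downstream (n = 78) and 0.06 Upstream (n = 72). The nearest cCRE, E074 within 1700030K09Rik and 7.3 kb away, had a relative effect of -0.02 Downstream and -0.18 Upstream. E073, 8.4 kb away within Calr3, had 0.22 Downstream.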

How the data were processed

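P018 and the lists used here were chosen with earlier results of these data known. Activities, per construct and replicate, are the authors' deposited ratio of cDNA to plasmid barcodes. Barcode filters, scaling and depth are not given in the sources used here, and neither is whether + means the genome or the gene strand. The submitters' processing notes name Bowtie2 and mm10. The authors' deposited log2 boost index was recomputed per replicate and differed from the mean over replicates by at most 0.0186 for P018. No sample could be assigned to 22 further value columns, which entered no test. No P018 construct had a replicate at 0. P-values measure the spread between transfections of the same plasmid pool.

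limma 3.58.1 (R 4.3.3) was fitted to log2 values over all Klf2 pairs of an assay, with moderated variances and Benjamini-Hochberg adjustment at 0.05. Pair tests set 3 replicate values against 3 of the baseline. Relative effects were tested against 0 within replicates, per oriented cCRE (1341 and 3648 combinations) or averaged over orientations (740 and 1372 combinations). The p-values of named cCREs are from the averages. The script was tested on simulated data. Other steps used Python 3.11.15, numpy 2.4.6, pandas 2.3.3 and scipy 1.17.1. Named cCREs are the 5 highest and 5 lowest relative effects in each assay, with the next one outside. Also named are the 3 promoters most like P018 and the least like, its neighbours in activity alone, and the extreme control inserts. Combination and baseline came from the same transfected sample, so replicate numbers pair them by design. Alternatives were the replicate block, leaving out a replicate, other baselines, a pseudocount of 0.01 with constructs at 0 kept, a minimum activity of 0.1, the median over other promoters, promoters of both assays, single orientations and scaling by a promoter's SD.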

Additional observations from a re-analysis of the deposited data

Results flagged for a closer look

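For 6 of the cCREs named with P018, the relative effect had opposite signs in the 2 assays in all 3 replicates of each. Opposite signs were common with P018, since the averaged relative effect had the same sign for 31 of the 71 cCREs measured in both assays. Other cCREs, such as E004, E038 and E095, were also opposite in all 3 replicates of each, so this was not particular to the 6. The differences, Downstream minus Upstream in log2 units, were not tested. E097, which had 0.26 Downstream and -0.75 Upstream, differed by 1.01, and E018, with 0.22 and -0.46, by 0.68. The other 4 were lower Downstream. E048 differed by -0.66 (-0.19 and 0.47), E107 by -0.61 (-0.08 and 0.53), E034 by -0.42 (-0.13 and 0.29) and E031 by -0.29 (-0.28 and 0.01). Of these, E107 was placed before P018 Upstream in - orientation only, where its Downstream value was 0.15. Upstream, the boost of E018+ with P018, at -0.23, was near the median of the other promoters at -0.17. The Upstream value of E031 was close to 0 (limma, adjusted p = 0.95) and turned negative under 5 other settings, from -0.00056 to -0.068, so its opposite sign depends on the processing. All but E031 had been chosen by their Upstream values, and E031 by its Downstream value. The promoters behind the mean also differed in number between the assays, with 9 others Downstream and up to 22 Upstream, and their part in the differences was not tested.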

How the results depend on the processing

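Counts of calls for P018 depended on the error model. With the replicate block, which pairs a construct with its baseline in the same transfection, Downstream pairs called rose from 77 to 127. Leaving out 1 replicate gave 42 to 81 Downstream pairs, 0 Upstream pairs each time and 0 to 28 promoter pairs. These fits hold fewer samples. Over all pairs they left 44.9 to 60.6 percent Downstream, 13.8 to 32.7 percent Upstream and 28.2 to 50.5 percent of promoter pairs at an unadjusted p under 0.05. Upstream pairs called fell from 73 to 27 against the median construct. Downstream relative effects called were 102 of 145, and 55 of 71 and 49 of 74 with cCREs in + or - orientation only. As shares these are 70.3, 77.5 and 66.2 percent, so the totals fell with the number of pairs tested. Over all promoters, 70.5, 72.6 and 68.2 percent were at an unadjusted p under 0.05 in these limma fits. Upstream relative effects called rose from 0 to 12 of 214 after scaling by the promoter's SD. Other alternatives kept these totals within 1.5 times, but Downstream the split of 59 higher and 18 lower became 14 and 76 against the promoter alone and 37 and 27 against the median construct. Among single cCREs whose Upstream effect was not called, the sign turned for E055 with the median over other promoters (-9e-06), promoters of both assays (-0.053), SD scaling (-0.016) and the minimum activity (-0.036). It turned for E031 under the same 4 settings (-0.024, -0.068, -0.00056 and -0.043) and in - orientation (-0.056). E003 turned with promoters of both assays (-0.081) and the minimum activity (-0.11), and E007 with SD scaling (0.33). Without replicate 2, E065 (0.078), E033 (-0.012) and E055 (-0.13) turned, so leaving out a replicate gave -0.15 to 0.08 for E065, -0.01 to 0.36 for E033 and -0.13 to 0.23 for E055. Downstream, E071 turned with the median over other promoters (0.062) and E107 in - orientation (0.15). The cause was not tested. The block moved no other total by over 1.5 times.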
